A study of Homo sapiens with 6 samples.

Results

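Immediate-early mRNAs were followed in RNA fragments recovered with phosphorylated UPF1. The set comprised JUN, JUNB, JUND, FOS, FOSB, IER2, EGR1, EGR3, DUSP1 and MYC, taken as the rows of the deposited count table that carry exactly these symbols, 10 of 26364 genes. All 10 were in the table, and 9 had enough counts to be tested. All libraries came from HEK293T, a transformed human embryonic kidney cell line, cultured with 200 nM okadaic acid for 3 h, so both groups carried the same phosphatase inhibitor and no untreated library was analysed here. The 3 pre-IP libraries (replicates 1, 4 and 7 by title) are the control, and the 3 p-UPF1 IP libraries (replicates 3, 6 and 9) hold RNA that an antibody to UPF1 in its phosphorylated form (p-UPF1) precipitated. The control libraries also carry a rabbit IgG antibody label, so whether the control is input RNA or RNA of a mock precipitation is not settled by the labels. Cells of several dishes were pooled for a precipitation, and separate cultures per replicate are not stated in the labels. Every p-value here therefore reflects the spread among 6 libraries that may be technical repeats. The comparison asks which RNAs are recovered with p-UPF1, as a mark of direct targets of nonsense-mediated mRNA decay (NMD).

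Immediate-early genes are transcribed within minutes of a stimulus by transcription factors already present, such as SRF and CREB, without new protein synthesis. Mitogen-activated kinases turn these factors on and phosphatases turn the kinases off, and okadaic acid inhibits the phosphatases PP1 and PP2A, of which PP2A also removes phosphate from UPF1. Their mRNAs are short-lived, and many carry AU-rich elements in the 3' untranslated region (UTR), where proteins such as TTP recruit the deadenylation machinery. UPF1 is the RNA helicase at the centre of NMD, in which exon junction complexes left downstream of a stop codon by splicing strengthen decay. A gene whose coding region and 3' UTR lie in 1 exon leaves no such complex after its stop codon.

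In GENCODE 29 on GRCh38, a later build than the hg19 of the count table, none of the 10 representative transcripts had an exon junction after the stop codon. JUN and JUNB had 1 exon in every transcript. JUND had 2 transcripts, with 1 and 2 exons. The representative IER2 transcript had 2 exons with its intron in the 5' UTR, so that intronless describes its coding region only. The 6 spliced members had 2 to 4 exons in the representative transcript. AU-rich pentamers (ATTTA, sense strand of the annotated 3' UTR, overlapping copies counted separately) numbered 5 in FOS, 4 in DUSP1, 4 in MYC, 3 each in JUN, FOSB and EGR3, 2 in JUNB, 1 each in JUND and EGR1 and 0 in IER2. The nonamer TTATTTATT occurred once in FOS and 2 times in DUSP1.

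The windows of 30 bases with the most pentamers are shown for FOS and DUSP1, whose copies overlap, and for JUN and JUNB, whose copies stand alone, 5' to 3' on the mRNA strand, with ATTTA in capitals.
FOS: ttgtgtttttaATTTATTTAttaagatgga
DUSP1: ggctggtccttATTTATTTAacttcacccg
JUN: ttccagaaaggatATTTAagaaaatacaat
JUNB: aatatatttgtgtATTTAacagggagggga
The FOS window lies at chr14:75282057-75282086 on the plus strand, 633 to 662 bases after the stop codon. The DUSP1 window lies at chr5:172768641-172768670 on the minus strand, 92 to 121 bases after the stop. The JUN window lies at chr1:58781336-58781365 on the minus strand and the JUNB window at chr19:12793059-12793088 on the plus strand. A match describes these letters and is not evidence of a bound protein. Of the 7685 tested protein-coding genes, 26.3% held at least 2 pentamers within 30 bases, and 9.40% of those were higher in p-UPF1 IP, against 8.69% of the genes without any pentamer.

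Pre-IP libraries held 600244 to 1179369 counts and p-UPF1 IP libraries 905926 to 2057647. Small structured RNA genes (snoRNA, snRNA, 7SL and similar) took 63.2% to 75.2% of pre-IP counts and 24.1% to 43.1% of p-UPF1 IP counts, so the scaling decides much of what a fold change says. The main test was the quasi-likelihood F-test of edgeR with TMM scaling, which sets the bulk of genes near no change, at a Benjamini-Hochberg adjusted p of 0.05 over all 8070 genes tested. It called 711 genes higher and 880 lower in p-UPF1 IP. With library totals alone it called 4874 higher and 156 lower. The change of scale moved the median of all tested genes from 0.10 to 1.63 (log2). Of 20 markers of blood, liver, fibroblast, muscle and epidermis, 13 had no count in any library and the list took at most 0.00148% of the counts of a library.

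Immediate-early mRNAs took a larger share of the p-UPF1 IP libraries than of the control. Their share of all counts was 0.0498%, 0.0402% and 0.0142% in pre-IP (587, 241 and 134 counts) and 0.169%, 0.175% and 0.109% in p-UPF1 IP (3487, 3219 and 988 counts). The groups did not overlap, and the means (0.0347% ± 0.0184 and 0.151% ± 0.0366, SD, n = 3 each) differed 4.36-fold. Most tested genes behaved likewise on library totals, where 68.7% were higher without overlap and the median log2 fold change was 1.63. The separation is therefore not particular to the members. JUN made up a mean of 40.5% of the member total in the control and 53.1% after precipitation, so the 4.36-fold ratio rests in part on JUN. As a share of protein-coding counts the members took 0.139%, 0.166% and 0.0417% in pre-IP and 0.270%, 0.312% and 0.146% in p-UPF1 IP. These values overlapped, with a 2.10-fold ratio of means, while the share of protein-coding counts in the libraries itself went from 31.4% ± 6.31 to 64.6% ± 9.54. These shares describe RNA recovered in each kind of library, not the number of cells that express a gene or its RNA per cell.

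Member by member, the test called IER2 and EGR3 higher in p-UPF1 IP relative to the bulk of RNAs. It called no member lower, and 7 tested members did not pass. The IER2 call held in 2 and the EGR3 call in 1 of the 6 fits that left out 1 library. The shares of all tested genes called were 8.81% higher and 10.9% lower, beside 2 and 0 of the 9 tested members. At an unadjusted p under 0.05 the counts were also 2 and 0, beside 17.3% of all tested genes higher and 16.7% lower. DESeq2 called the same 2 members, with 826 of all 8070 genes higher and 957 lower. Of the members limma-voom called EGR3 alone, with 651 of all genes higher and 1031 lower. The members' median log2 fold change was 0.34, beside 0.10 for all tested genes. EGR3 passed the filter on low counts only through the p-UPF1 IP libraries (0 pre-IP and 3 p-UPF1 IP libraries reached it). Its place among the tested members and among the calls therefore rests on the group where it is high. With a count of 0 set to the limit of 3 counts that it allows, no member had groups without overlap on the TMM scale, where 20.0% of tested genes were higher without overlap. With 0 taken as a level, EGR3 was the one such member, beside 21.9% of tested genes. On library totals 8 of the 9 tested members were called higher, beside 60.4% of tested genes, and their median was 1.90 beside 1.63. On that scale 6 members (JUN, JUND, IER2, EGR3, DUSP1 and MYC) had groups that did not overlap, beside 68.7% of tested genes.

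**Figure D1:**
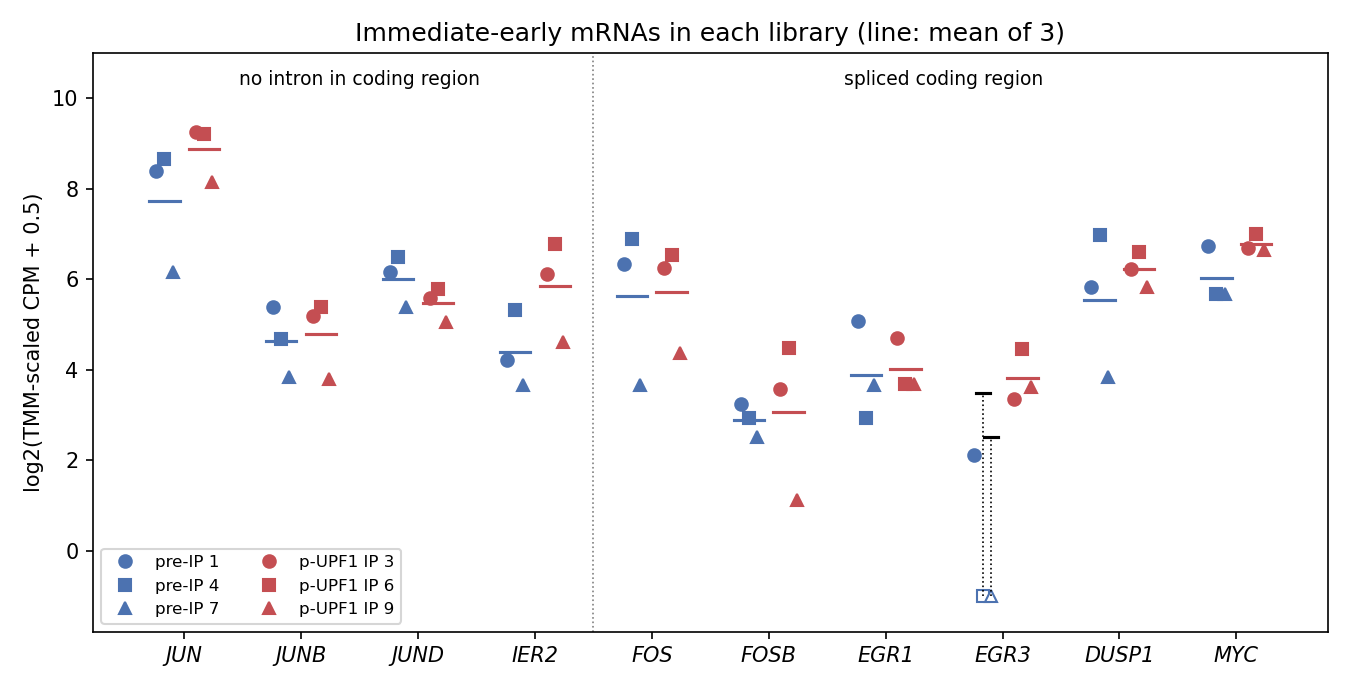
Level of each immediate-early mRNA in each library, as log2 of TMM-scaled CPM plus 0.5 (vertical axis), with blue for the 3 pre-IP and red for the 3 p-UPF1 IP libraries, and lines at the mean of 3. Open symbols are 0 counts, with a dotted line up to the level that 3 counts would give, and no mean is drawn for EGR3 in pre-IP. At that limit the groups of every member overlap, and the triangles (pre-IP 7 and p-UPF1 IP 9) are the lowest of their group for 8 and 9 of the 10 members.

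**Figure D2:**
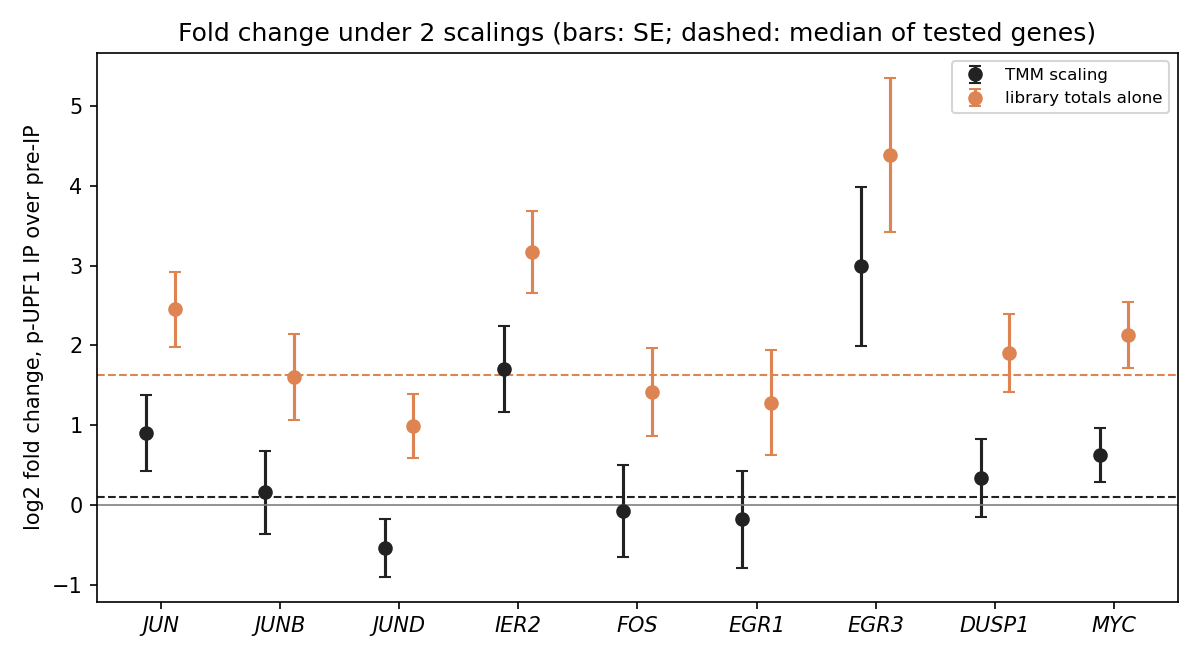
Log2 fold change of p-UPF1 IP over pre-IP for the 9 tested members (points) with its standard error (bars), under TMM scaling and under library totals alone, with dashed lines at the median of all tested genes on each scale (0.10 and 1.63). IER2 and EGR3 lie farthest above the dashed line on both scales and JUND farthest below it. Both scales rest on the same counts, so the second is not separate support. EGR3 had 3, 0 and 0 counts in pre-IP and passed the filter on low counts only through p-UPF1 IP.

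The JUN family encodes basic leucine zipper proteins that form the AP-1 factor alone or with FOS proteins. JUN (ENSG00000177606, chromosome 1, 58780788 to 58784327) was the most counted member, with 260, 112 and 41 counts in pre-IP 1, 4 and 7 and 2011, 1630 and 503 in p-UPF1 IP 3, 6 and 9. Scaled by TMM these were 333, 401 and 70.8 CPM (counts at a common library total) in pre-IP and 614, 593 and 281 in p-UPF1 IP. The lowest p-UPF1 IP value lay below the upper 2 pre-IP values. This difference of 0.90 on the log2 scale (SE 0.48, adjusted p = 0.197), or 1.87-fold, did not pass the test. JUN passed in 3 of 18 alternative settings. These included no filter on low counts (log2 fold change 1.09, adjusted p = 0.0305) and library totals alone (2.45, adjusted p = 2.9e-04). JUN also passed with a replicate block by triplet of title numbers (1.11, adjusted p = 0.00954), a pairing that the labels do not state.

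JUNB (ENSG00000171223, chromosome 19, 12791496 to 12793315), often an antagonist of JUN at shared promoters, had 32, 7 and 8 counts in pre-IP and 117, 113 and 24 in p-UPF1 IP. Its TMM-scaled levels were 40.9, 25.1 and 13.8 CPM against 35.7, 41.1 and 13.4 CPM, which covered the same range. The log2 fold change was 0.16 (SE 0.51, adjusted p = 0.864). JUNB lies inside HOOK2 on the opposite strand. HOOK2 held 12 counts in all of pre-IP and 31 in all of p-UPF1 IP, and the strand setting of the counting is not given in the sources used here, so reads of the pair cannot be told apart.

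JUND (ENSG00000130522, chromosome 19, 18279760 to 18281622), the family member with steady expression in resting cells, had 55, 25 and 24 counts in pre-IP and 156, 150 and 58 in p-UPF1 IP. Scaled by TMM its level was 70.4, 89.5 and 41.5 CPM in pre-IP and 47.6, 54.6 and 32.4 CPM in p-UPF1 IP, with overlap. For JUND the fold change was -0.54 on the log2 scale (SE 0.37, adjusted p = 0.321). Library totals turned its direction, to 0.99 (adjusted p = 0.0383). JUND was at percentile 99.9 of transcript GC content among tested protein-coding genes, and with the GC trend of the fold changes removed its value was -1.42 (adjusted p = 0.0151), a call in a fit that called 7.59% of genes lower.

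Within a library, where no scaling enters, JUN was counted more often relative to JUND in all p-UPF1 IP libraries than in any pre-IP library. The log2 ratio of JUN to JUND counts, with 0.5 added to each, was 2.23, 2.14 and 0.76 in pre-IP and 3.68, 3.44 and 3.11 in p-UPF1 IP. The means differed by 1.70 (exact permutation p = 0.1, two-sided, and 0.25 adjusted over 5 pairs). With 3 libraries against 3 no smaller p than 0.1 can arise. Without pre-IP 7 the difference was 1.22. The JUN to JUNB ratio was 3.00, 3.91 and 2.29 in pre-IP and 4.10, 3.84 and 4.36 in p-UPF1 IP, a difference of 1.04 with overlap (exact permutation p = 0.2, adjusted 0.25). For JUNB to JUND the difference was 0.66, also with overlap (exact permutation p = 0.2, adjusted 0.25). No pair could pass 0.05 in this design. How many other gene pairs separate in this way was not counted. The separation is therefore not shown to be particular to JUN and JUND.

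**Figure D3:**
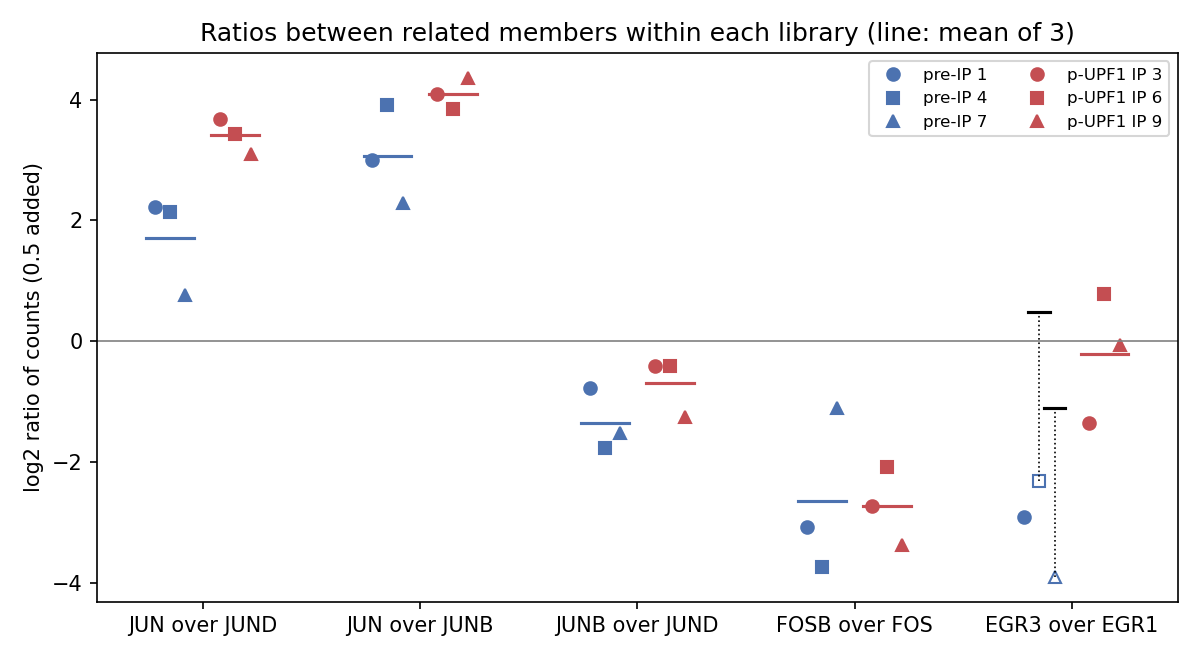
Log2 ratio of the counts of related members within each library, with 0.5 added to each count (vertical axis), for 5 pairs; blue points are pre-IP, red points p-UPF1 IP, and lines the mean of 3. Open symbols are libraries with no EGR3 count, with a dotted line up to the ratio that 3 counts would give and no pre-IP mean. JUN over JUND is the one of these 5 pairs whose groups do not overlap, and the separation of other gene pairs was not counted.

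The FOS proteins bind DNA only as partners of JUN proteins. FOS (ENSG00000170345, chromosome 14, 75278774 to 75282230), the member with 5 pentamers, had 63, 33 and 7 counts in pre-IP and 248, 255 and 36 in p-UPF1 IP. Its TMM-scaled levels of 80.6, 118 and 12.1 CPM in pre-IP enclosed those of 75.8, 92.8 and 20.1 CPM in p-UPF1 IP. FOS showed -0.08 on the log2 scale (SE 0.57, adjusted p = 0.939), while library totals gave 1.42 (adjusted p = 0.0312).

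FOSB (ENSG00000125740, chromosome 19, 45467995 to 45475179) had 7, 2 and 3 counts in pre-IP and 37, 60 and 3 in p-UPF1 IP and did not pass the filter on low counts. Its TMM-scaled level was 8.96, 7.16 and 5.18 CPM in pre-IP and 11.3, 21.8 and 1.68 CPM in p-UPF1 IP. Replicate 9 of p-UPF1 IP lay below the pre-IP range and the other 2 above it. On library totals replicate 9 (3.31 CPM) lay within the pre-IP range of 3.17 to 5.94 CPM. Fitted without the filter, FOSB had 0.88 on the log2 scale (SE 0.81, adjusted p = 0.542). FOSB lies inside ERCC1 on the opposite strand, which held 23 counts over pre-IP and 84 over p-UPF1 IP. The FOSB to FOS log2 ratio differed by -0.09 between the groups (exact permutation p = 1.0), and by 0.68 without pre-IP 7, so no direction is given. Antisense genes annotated over IER2, EGR3 and DUSP1 had no row under their GENCODE names. With the strand setting not given, reads of these genes cannot be told apart from those of the 3 members.

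IER2 encodes a small nuclear protein induced by serum and growth factors. Its mRNA (ENSG00000160888, chromosome 19, 13150415 to 13154908), the member without an AU-rich pentamer, had 14, 11 and 7 counts in pre-IP and 226, 302 and 43 in p-UPF1 IP. Scaled by TMM its level was 17.9, 39.4 and 12.1 CPM in pre-IP (23.1 ± 14.4, SD, n = 3) and 69.0, 110 and 24.1 CPM in p-UPF1 IP (67.7 ± 43.0, n = 3). Replicates 3 and 6 of p-UPF1 IP lay above all of pre-IP, and replicate 9 lay between pre-IP 1 and pre-IP 4. The log2 fold change was 1.71 (SE 0.54, adjusted p = 0.0355), or 3.26-fold. The call held in 12 of 18 alternatives and in 2 of the 6 fits that left out 1 library. It was lost without pre-IP 1 (adjusted p = 0.0965), pre-IP 7 (0.102), p-UPF1 IP 3 (0.101) or p-UPF1 IP 6 (0.245), with limma-voom (0.0929), and with the GC trend removed, where the log2 fold change was 1.07 (adjusted p = 0.198). IER2 was at percentile 94.9 of GC content.

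EGR1 and EGR3 encode zinc finger factors that bind the same GC-rich element. EGR1 (ENSG00000120738, chromosome 5, 138465490 to 138469315) had 26, 2 and 7 counts in pre-IP and 83, 34 and 22 in p-UPF1 IP. Its TMM-scaled level was 33.3, 7.16 and 12.1 CPM in pre-IP and 25.4, 12.4 and 12.3 CPM in p-UPF1 IP, so that pre-IP held both the highest and the lowest value. The log2 fold change was -0.18 (SE 0.61, adjusted p = 0.864). EGR1 was the tested member that missed the threshold on library totals too (log2 fold change 1.28, adjusted p = 0.0940).

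EGR3 (ENSG00000179388, chromosome 8, 22687659 to 22693302) had 3, 0 and 0 counts in pre-IP and 32, 59 and 21 in p-UPF1 IP. A count of 0 allows up to 4.998 CPM of the library total in pre-IP 4 and 3.17 CPM in pre-IP 7, and pre-IP 1 held 2.54 CPM, beside 15.6, 32.1 and 23.2 CPM in p-UPF1 IP. On that scale all p-UPF1 IP values lay above these limits. Scaled by TMM, the limit of pre-IP 4 (10.7 CPM) lay above the level of 9.77 CPM in p-UPF1 IP 3 and below the other 2 (21.5 and 11.7 CPM), so that the groups were not separated. Summed over libraries and scaled by TMM, EGR3 was 7.84-fold higher, with an exact (Clopper-Pearson) 95% interval of 2.61 to 38.6 that covers counting error only. The fitted log2 fold change was 2.99 (SE 0.99, adjusted p = 0.0431). The call held in 8 of 17 alternatives. Of the fits that left out a library it held in 1, without pre-IP 1, which leaves no pre-IP count, and in the other 5 the adjusted p was 0.0775 to 0.199. It was 0.0657 with the length trend removed, 0.0603 with the GC trend removed and 0.0516 without the small structured RNAs. In all, leaving out 1 library gave 0 to 2 called members, and 0 without pre-IP 7, p-UPF1 IP 3 or p-UPF1 IP 6.

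The log2 ratio of EGR3 to EGR1 counts within a library was -2.92 in pre-IP 1 and -1.36, 0.79 and -0.07 in p-UPF1 IP. In pre-IP 4 and 7 EGR3 had no count, and the limit of 3 counts allows ratios up to 0.49 and -1.10, which overlap the p-UPF1 IP values, so no difference is given.

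DUSP1 encodes the nuclear phosphatase that inactivates mitogen-activated kinases and so feeds back on the immediate-early response. Its mRNA (ENSG00000120129, chromosome 5, 172768090 to 172771195) had 44, 35 and 8 counts in pre-IP and 242, 267 and 100 in p-UPF1 IP. The TMM-scaled level was 56.3, 125 and 13.8 CPM in pre-IP and 73.9, 97.2 and 55.9 CPM in p-UPF1 IP, and pre-IP held the lowest and the highest value. DUSP1 showed 0.34 on the log2 scale (SE 0.49, adjusted p = 0.676).

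MYC encodes a growth-promoting factor that acts with MAX. Its mRNA (ENSG00000136997, chromosome 8, 127735434 to 127741434) had 83, 14 and 29 counts in pre-IP and 335, 349 and 178 in p-UPF1 IP. The TMM-scaled level was 106, 50.1 and 50.1 CPM in pre-IP and 102, 127 and 99.6 CPM in p-UPF1 IP. Pre-IP 1 lay within the p-UPF1 IP range and the other 2 pre-IP libraries below it. The log2 fold change was 0.62 (SE 0.34, adjusted p = 0.203), and without pre-IP 1 it was 1.14 (adjusted p = 0.0366).

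In CPM of the library total per kilobase of the representative transcript, JUN was the most abundant member in both groups, at 42.4 ± 26.6 before and 228 ± 62.7 after the precipitation of p-UPF1 (SD, n = 3). In pre-IP it was followed by JUND (20.3 ± 5.96), FOS (17.9 ± 12.5), MYC (17.5 ± 10.7) and DUSP1 (17.2 ± 12.4), then JUNB (8.66 ± 5.49), IER2 (6.01 ± 2.63), EGR1 (3.48 ± 3.14), FOSB (1.10 ± 0.411) and EGR3 (0.196 ± 0.339). The EGR3 mean takes 2 counts of 0 as levels. In pre-IP 4 its limit was 1.153 per kilobase, above FOSB there (0.883), and no neighbours in that order were separated. In p-UPF1 IP the order after JUN was MYC (77.3 ± 7.52), DUSP1 (61.6 ± 9.07), IER2 (51.4 ± 28.0), FOS (46.2 ± 24.4), JUND (39.6 ± 4.79), JUNB (26.5 ± 10.4), EGR1 (8.83 ± 3.61), EGR3 (5.44 ± 1.91) and FOSB (4.76 ± 3.88). There JUN stood apart from MYC, and JUNB from EGR1, by more than their SDs, and the other neighbours did not. JUND, next to JUN in pre-IP, ranked below MYC, DUSP1, IER2 and FOS in p-UPF1 IP.

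The members varied together between replicates of a group. On the TMM scale pre-IP 7 held the lowest pre-IP value of 8 of the 10 members (EGR1 was lowest in pre-IP 4, and EGR3 tied at 0), where it was lowest for 34.9% of tested genes. In p-UPF1 IP, replicate 9 was lowest for 9 of the 10, all but EGR3, against 33.9% of tested genes. The median member lay 0.76 below its group mean on the log2 scale in pre-IP 7 and 0.58 below it in p-UPF1 IP 9, where the median of all tested genes lay within 0.13 of the group mean in every library. Other immediate-early genes were lowest in the same libraries, 21 of 31 tested in pre-IP 7 and 26 of 31 in p-UPF1 IP 9. On library totals these 2 libraries were lowest for 7 of the 10 members each, against 29.7% and 15.2% of tested genes. Replicate 9 had the smallest total of the p-UPF1 IP libraries and the smallest share of small structured RNAs (24.1%), whereas replicate 7 was the middle library of pre-IP in both measures (65.2% small structured RNAs). Title numbers 7 and 9 also fall in the same triplet of consecutive numbers, which the labels do not state as a pairing. The main test and the permutation tests took the libraries as unpaired. The part of either measure or of a shared triplet in the low values was not tested.

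Members without an intron in the coding region did not separate from the spliced ones. The median log2 fold change was 0.53 over JUN, JUNB, JUND and IER2 and 0.34 over the 5 tested spliced members, or 0.13 over the spliced members without EGR3. The intronless members ran from -0.54 (JUND) to 1.71 (IER2) and the spliced ones from -0.18 (EGR1) to 2.99 (EGR3), so each class spanned most of the other. The difference between the medians, 0.19, ranged from -0.05 with the GC trend removed to 0.57 with a minimum count of 30. No test was made, since genes are not replicates.

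The intronless members took 61.5%, 64.3% and 59.7% of the member counts in pre-IP and 71.98%, 68.2% and 63.6% in p-UPF1 IP (61.8% ± 2.33 and 67.9% ± 4.22, n = 3 each), with overlap. JUN alone differed by more than the intronless members together, by 12.6 against 6.07 percentage points of the member counts. Its share of member counts was 44.3%, 46.5% and 30.6% in pre-IP and 57.7%, 50.6% and 50.9% in p-UPF1 IP, with no overlap. Without JUN the intronless share was 30.9%, 33.3% and 41.9% in pre-IP and 33.8%, 35.6% and 25.8% in p-UPF1 IP, and its mean went from 35.4% to 31.7%.

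Across all tested genes, the 77 genes with 1 exon in every transcript, replication-dependent histone (HIST) genes left out, had 5 higher and 3 lower calls and a median log2 fold change of -0.10. JUN and JUNB are among these 77. The 7574 protein-coding genes with introns had 694 higher and 592 lower calls and a median of 0.16. The 34 HIST genes, whose mRNAs end in a stem-loop and decay through UPF1 by a route of their own, had 0 higher and 26 lower calls and a median of -1.67. JUND, the lowest of the intronless members, was at -0.54. The classes also differed in median transcript length and GC content. These were 2933 bases and 54.55% for the 77 genes and 3579 bases and 47.23% for genes with introns. HIST genes had 411 bases and 59.48%. The part of length and GC content in the differences between classes was not tested.

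**Figure D4:**
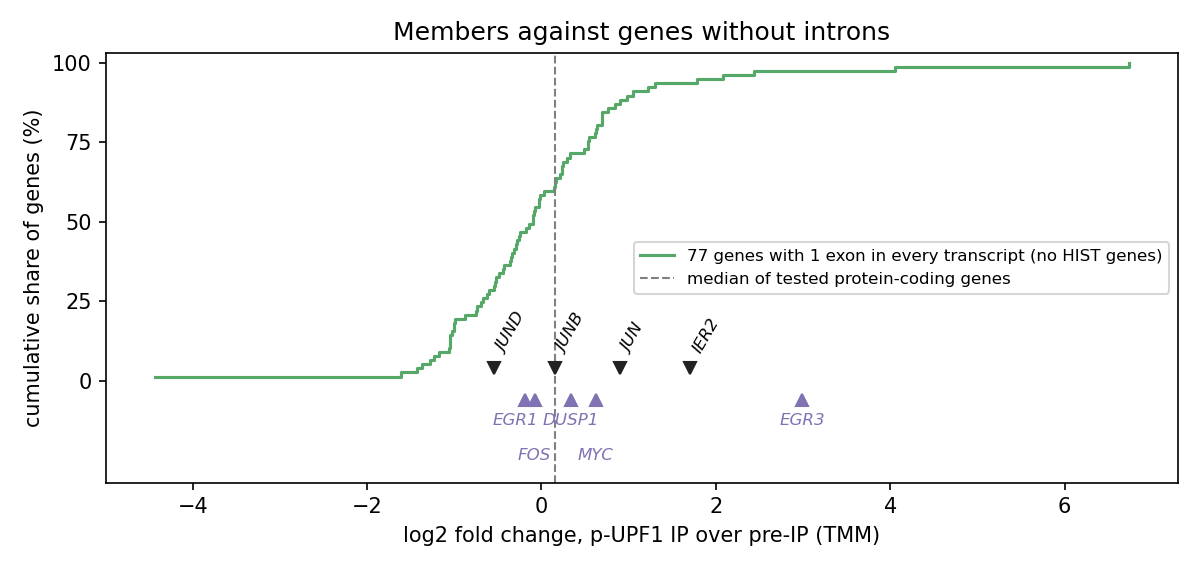
Cumulative share (vertical axis) of the log2 fold changes of 77 tested genes with 1 exon in every transcript, HIST genes left out (green line), with the 4 members without an intron in the coding region as black triangles and the 5 tested spliced members as purple triangles placed below 0 for legibility. The dashed line is the median of the tested protein-coding genes (0.15), and both kinds of members lie on either side of it.

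Of 43 other immediate-early genes in the table, 31 were tested, and 1 was higher and 0 lower in p-UPF1 IP, with a median log2 fold change of 0.19. The one that rose was ATF3, a stress-induced partner of JUN, with 22, 11 and 7 counts in pre-IP and 306, 441 and 123 in p-UPF1 IP. All its p-UPF1 IP values lay above those of pre-IP on the TMM scale, with means of 26.5 ± 13.7 and 108 ± 47.5 CPM (SD, n = 3). Its log2 fold change was 2.10 (SE 0.44, adjusted p = 0.00298), and it was called in 18 of 18 alternatives, with adjusted p from 3.1e-06 to 0.0312. At an unadjusted p under 0.05, 7 were higher and 3 lower, where 17.3% of all tested genes were higher and 16.7% lower, and DESeq2 called 2 higher and 0 lower. On library totals 19 of the 31 were called higher, near the 60.4% of all tested genes.

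Of 19 genes of AP-1, EGR and MYC partners, 11 were tested, with 0 higher, 1 lower and a median of 0.68. The one that fell was MAX, the obligate partner of MYC, with 50, 14 and 15 counts in pre-IP and 58, 65 and 26 in p-UPF1 IP. Its log2 fold change was -1.32 (SE 0.44, adjusted p = 0.0447), and on library totals it was 0.19 (adjusted p = 0.754). The MAX call held in 9 of 18 alternatives and, of the fits that left out a library, in the one without pre-IP 7, with adjusted p from 0.0726 to 0.211 in the other 5. Partners at an unadjusted p under 0.05 were 2 higher and 2 lower, and DESeq2 called 1 higher and 1 lower. Of 21 inputs of the response, such as SRF, ELK1, CREB1 and the mitogen-activated kinases, 18 were tested, edgeR called none (2 higher and 2 lower at an unadjusted p under 0.05, 1 higher with DESeq2, 0 with limma-voom) and the median was 0.20. Of 8 genes for proteins that bind AU-rich elements, 7 were tested, among them ELAVL1 (HuR) but not ZFP36 (TTP). Of these 7, edgeR, DESeq2 and limma-voom called none (2 higher at an unadjusted p under 0.05 in edgeR). All 7 lay above 0, as did 53.8% of all tested genes, with a median of 0.38 beside 0.10. On library totals 6 of the 7 were called higher, beside 60.4% of all tested genes.

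By the distance between centred log2 CPM over the 6 libraries, among 4035 genes of at least median abundance, the genes most like JUN were KLHL42 (distance 0.46), PTPRS (0.60) and CLPTM1 (0.67). Those most like MYC were TBCD (0.34), SAR1A (0.37) and VCAN (0.41). None of these 6 passed the test, an outcome that choice by likeness to JUN and MYC over the same libraries largely fixed.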

How the data were processed

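The authors deposited whole-number read counts per gene symbol for 6 libraries, without normalization. Cutadapt 1.15, STAR 2.5.2b, Subread 1.5.0p3 with featureCounts and the hg19 build were used, per the submitters' processing notes. The annotation, strand setting and handling of multiply mapped reads were not given in the sources used here. Per the labels' protocols, fragments above 20 nucleotides were ligated to adapters and amplified by PCR, with no molecular identifiers described, so intervals cover counting error only.

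Counts were tested with edgeR 4.0.16 in R 4.3.3 (filterByExpr, minimum count 10; TMM; quasi-likelihood F-test; Benjamini-Hochberg over 8070 genes). The standard error (SE) is the log2 fold change over the square root of F. Ratios within a library were compared by two-sided exact permutation tests. Structure, length and GC came from GENCODE 29, matched by symbol or RefSeq synonym; 1842 of 26364 symbols did not match, and length and GC were had for 95.2% of tested genes.

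On counts simulated for 8070 genes of this comparison, the test recovered 8.06% of 2-fold, 57.1% of 4-fold and 82.4% of 8-fold changes, and 3 of 104 calls were false. The simulation drew each gene independently from the fitted spread. It changed 62, 70 and 68 genes by 2-fold, 4-fold and 8-fold, far fewer than the 1591 genes called in the data. It held no shift in small structured RNAs and no replicate triplets. Its shares of recovered changes and of false calls therefore need not hold for the real libraries.

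Alternatives covered scaling (RLE, upper quartile, library totals), filters (none, or a minimum count of 30), DESeq2 1.42.0, limma-voom (limma 3.58.1), a robust fit, a replicate block, removal of small structured RNAs, of the length trend or of the GC trend (loess), and each library left out. The members, the lists and the rule for named genes (all members, list genes past the threshold, and the 3 genes most like the most counted intronless and spliced member) were chosen with earlier results of these data known.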

Additional observations from a re-analysis of the deposited data

How the results depend on the processing

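The number of genes called, 1591, was 5030 with library totals alone and 876 with the length trend removed (546 higher, 330 lower), and 791 to 1628 with 1 library left out. It was lowest without p-UPF1 IP 3 (791), 9 (908) or 6 (950). The number of members called, 2, was 8 with library totals (all higher), 1 with the length trend removed, limma-voom, a minimum count of 30 or the small structured RNAs left out, and 1, JUND as lower, with the GC trend removed; with 1 library left out it was 0 to 2. The intronless share of member counts differed by 6.07 percentage points between the groups, and by -3.67 without JUN. Log2 fold changes turned direction for JUNB with the GC trend removed (-0.55), for JUND with library totals (0.99), for FOS with the length trend removed (0.21), library totals (1.42), limma-voom (0.30) and no filter (0.10), for EGR1 with library totals (1.28) and for MAX with library totals (0.19). With 1 library left out they ranged from -0.16 to 0.75 for JUNB, -0.58 to 0.44 for FOS, -0.60 to 0.73 for EGR1 and -0.14 to 1.10 for DUSP1. The causes were not tested.

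A replicate block by triplet of title numbers (1 with 3, 4 with 6, 7 with 9), which the labels do not state as a pairing, gave 1656 calls; JUN was then called (1.11, adjusted p = 0.00954), EGR3 was not (adjusted p = 0.0945), and EGR1 was at 0.021. Deviations from the group means correlated across genes at 0.092, 0.172 and 0.102 within triplets, each library's best match in the other group, a hint from the data only. Of genes simulated with a 2-fold change at these depths and this spread, 8.06% were recovered, a share that need not hold for the real libraries.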
